A study of Mus musculus with 90 samples.

Results

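The Zfp and Zbtb genes of the mouse mostly encode proteins with C2H2 zinc fingers, small folds held by a zinc ion that read DNA. They were taken here by name: every probe that names a single gene whose symbol begins with Zfp or Zbtb and a digit, without Zfp36, Zfp36l1 and Zfp36l2, which bind RNA. This gave 115 probes of 106 genes. Of these, 107 probes of 100 genes (85 Zfp and 15 Zbtb) had a value in at least 2 of 3 replicate sets in every condition, out of 11600 features (9760 genes and 1840 unnamed probes) kept in the whole study. Zfp40, with 5 arrays missing, was kept, and Zbtb48, also with 5 missing, was not, by the rule on sets. Zfp930, Zfp46, Zfp239, Zfp773 and Zfp28 were missing on 10 to 90 arrays and were not kept either. Zbtb8os fits the naming rule, but its protein is not a zinc finger. The protein domains of the other members were not checked here.

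RAW 264.7 cells are a mouse macrophage line made by viral transformation. They were given lipopolysaccharide (LPS, 100 ng/ml, listed with 100 pM lipid binding protein), interferon gamma (IFG, 5 nM), the nucleotide analogue 2-methyl-thio-ATP (2MA, 500 µM), LPS with IFG, or LPS with 2MA, for 1, 2 or 4 h. The combinations used the same doses, but lipid binding protein is listed for LPS alone and not for them. RNA of each of the 15 conditions was hybridized on custom 2-colour arrays against RNA of untreated cells of the same time, in 3 sets, each with both dye orientations. All values are log2 ratios of treated over untreated RNA, so they show change and no level, and fewer cells with a transcript cannot be told apart from less transcript per cell. Nothing in the labels ties the sets to separate cultures, so the p-values may measure technical spread only. Whether treatments shared untreated RNA is not stated either.

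Most Zfp genes encode a KRAB domain beside the fingers, which recruits the corepressor Trim28 and histone methylation to silence DNA, retroelements above all. Zbtb proteins carry a BTB domain, which pairs them with each other and binds corepressors of the Ncor and Sin3 type; several set the fate of lymphocytes and myeloid cells. Many Zfp genes lie in tandem arrays of close copies, so a probe can read a near-identical neighbour; probe sequences were not used here, and this was not tested.

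The direction of the ratios is likely rather than stated. With Cy5 over Cy3 assumed, 5 of 5 genes known to be induced by LPS (median 3.84 at 4 h) and 4 of 4 known for IFG (median 3.28 at 4 h) were above 0. Dye-swapped arrays of a set correlated negatively across probes in 37 of 45 pairs (-0.784 to 0.396). Sets of a condition correlated over all features between 0.576 and 0.903 under LPS and the combinations, but between -0.330 and 0.551 under 2MA at 2 h and between -0.031 and 0.337 at 4 h. Markers of the cell line itself responded at 4 h of LPS, where 12.5% of all features were higher and 15.5% lower. Of 8 measured macrophage genes 4 were higher and 1 lower. Of the T cell, B cell, fibroblast and neutrophil markers, 1 of 5, 0 of 4, 0 of 5 and 2 of 5 were higher there, none 2-fold. Ratios give no level, so the presence of such cells was not tested.

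Of the 100 members, 59 passed limma's test (adjusted p under 0.05 over all features) in 1 or more conditions, where 48.3% of all features did. Of these, 40 were lower and never higher (24.8% of all features), 16 were higher and never lower (21% of all features) and 3 did both (2.55%). A change of at least 2-fold as well was reached by 14 members, against 9.78% of all features. These were Zbtb22, Zbtb32, Zfp275, Zbtb7a and Zfp281, which rose, and Zfp398, Zbtb4, Zfp524, Zfp958, Zfp346, Zfp788, Zfp53, Zfp248 and Zfp810, which fell. The other 41 members passed in no condition. Among them the mean farthest from 0 was that of Zfp146 (-0.68 at 1 h of 2MA).

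**Figure D1:**
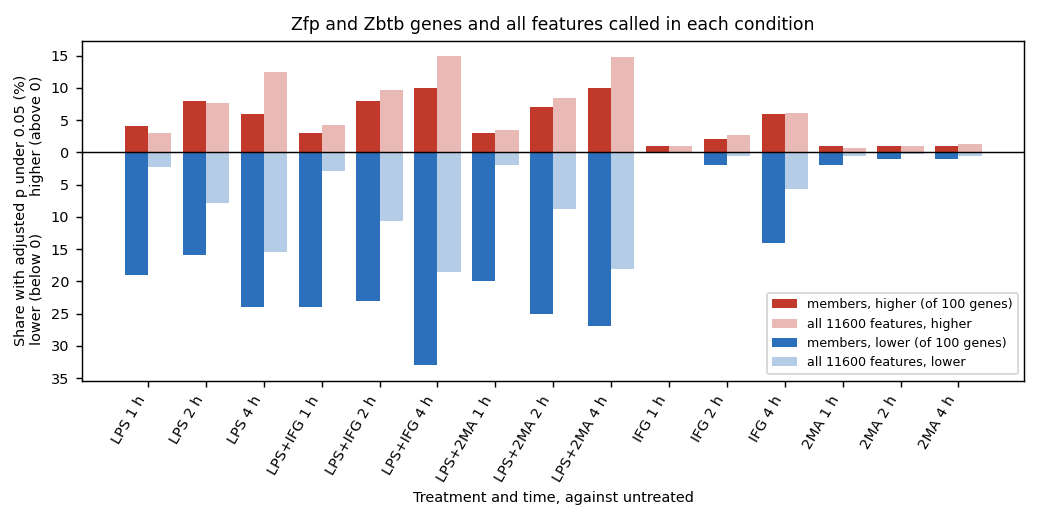
Share of the 100 members (dark bars) and of all 11600 features (pale bars) with an adjusted p under 0.05 against untreated, higher above the line and lower below it, in percent, by treatment and time. At 1 h of LPS 19 members were lower, against 2.35% of all features, while the shares of higher members stay near or under the pale bars.

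After 1 h of LPS, 19 members were lower, where 2.35% of all features were, and 4 were higher (3.04% of all features). The 19 comprised 17 Zfp genes, with means from -0.86 (Zfp398) to -0.32 (Zfp639), and the Zbtb genes Zbtb14 and Zbtb1. Of the 4 higher members 3 were Zbtb genes. The 15 Zbtb genes had a median of 0.04 and the 85 Zfp genes one of -0.09. At 2 h 4 Zbtb genes were higher and 2 lower, and 4 Zfp genes higher and 14 lower (7.59% and 7.79% of all features). At 4 h 3 Zbtb genes were higher and 4 lower, and 3 Zfp genes higher and 20 lower (12.5% and 15.5% of all features). The medians at 4 h were -0.12 for the Zbtb and -0.04 for the Zfp genes. The difference between the 2 families was not tested. None of the 19 reached 2-fold at 1 h, which 0.0517% of all features did in that direction, though 3 did with the spread of the arrays scaled. At 1 h of LPS the median of the 100 members was -0.08, beside -0.01 over all features. Below 0 were 65 members, beside 53.4% of all features. The same time of LPS+IFG gave 24 lower members (2.96% of all features) and 3 higher (4.3%), and that of LPS+2MA 20 lower (1.92%) and 3 higher (3.44%). The combinations contain LPS and may share untreated RNA with it. Leaving out set 1 of LPS lowered its count of calls from 23 to 14, of which 12 were lower (0.845% of all features). For LPS+2MA the 23 calls became 13 without set 1 and 14 without set 2, with 12 and 13 lower members (0.948% and 0.974% of all features).

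Zfp398, a finger protein that was first described as a partner of the estrogen receptor, was the lowest member at 1 h of LPS, with set values of -1.09, -0.60 and -0.89 (mean -0.86 ± 0.25, SD, n = 3; adjusted p = 0.000304). The mean was -0.68 ± 0.39 at 2 h. At 4 h its sets read -1.57, -1.48 and -1.59, a mean of -1.55 ± 0.06 (2.92-fold lower, adjusted p = 5.79e-10), and every 4 h set lay below every 1 h set. LPS+IFG at 4 h gave -1.77, -1.28 and -1.94 (mean -1.66 ± 0.35), the lowest mean of any member in any condition. IFG alone reached -0.60 ± 0.28 at 4 h (adjusted p = 0.00789).

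Zfp958 was lower in 11 of 15 conditions. Its sets were -0.81, -0.61 and -0.98 at 1 h of LPS and -1.07, -0.78 and -1.05 at 4 h, so the fall was made early and then held. LPS+IFG at 4 h gave -1.36, -1.58 and -1.49, all below the sets of LPS alone (mean -1.48 ± 0.11, 2.78-fold lower, adjusted p = 1.51e-10). IFG alone had no such value at 1 h (-0.20 ± 0.07) and was at -0.83 ± 0.13 by 4 h (adjusted p = 6.49e-05). At 1 h of 2MA alone Zfp958 was lower too (-0.57 ± 0.20, adjusted p = 0.0423).

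Zfp53 belongs to a small array of KRAB genes with Zfp54 and Zfp51. It read -0.75, -0.48 and -1.07 at 1 h of LPS (mean -0.77 ± 0.29, adjusted p = 4.41e-08) and -1.11, -0.91 and -1.17 with LPS+IFG (mean -1.07 ± 0.13, 2.09-fold lower). Zfp54 was lower beside it (-0.62 ± 0.05, adjusted p = 1.16e-05), while Zfp51 was at -0.27 ± 0.10 (adjusted p = 0.209). Under LPS+IFG Zfp53 had recovered in part by 4 h, to -0.59 ± 0.10, a rise of 0.47 from 1 h (adjusted p = 0.0052 for the difference).

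Zfp788 and Zfp346 were also lower at 1 and 2 h of LPS. Zfp788 read -0.75, -0.82 and -0.41 at 1 h of LPS and -1.09, -0.84 and -1.36 at 2 h of LPS+IFG, where it was 2.14-fold lower (adjusted p = 5.31e-11). Zfp346, whose protein binds double-stranded RNA, reached its lowest values at 2 h: -0.94, -1.27 and -1.31 with LPS+IFG (mean -1.17 ± 0.20) and -0.74, -1.03 and -1.44 with LPS+2MA (mean -1.07 ± 0.35). By 4 h of LPS it stood at -0.30 ± 0.26, which was not called (adjusted p = 0.0689). IFG and 2MA alone each lowered it at 2 h, to -0.53 ± 0.16 (adjusted p = 0.00658) and -0.58 ± 0.24 (adjusted p = 0.00884).

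Zfp90, a KRAB protein singled out here after its values were seen, was called lower at 1 h of LPS and its combinations and at no other time. Its sets were -0.74, -0.79 and -0.69 at 1 h of LPS (mean -0.74 ± 0.05, adjusted p = 4.42e-05). At 4 h they were -0.04, -0.23 and 0.29, on both sides of 0 and all above the 1 h sets. The difference, 4 h less 1 h, was 0.75 (adjusted p = 0.0017). LPS+IFG (-0.76 at 1 h, 0.09 at 4 h) and LPS+2MA (-0.63 and 0.10) showed the same course, with differences of 0.85 and 0.73. Under IFG alone Zfp90 stayed between 0.02 and 0.15, and LPS less IFG at 1 h was -0.89 (adjusted p = 0.00079).

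**Figure D2:**
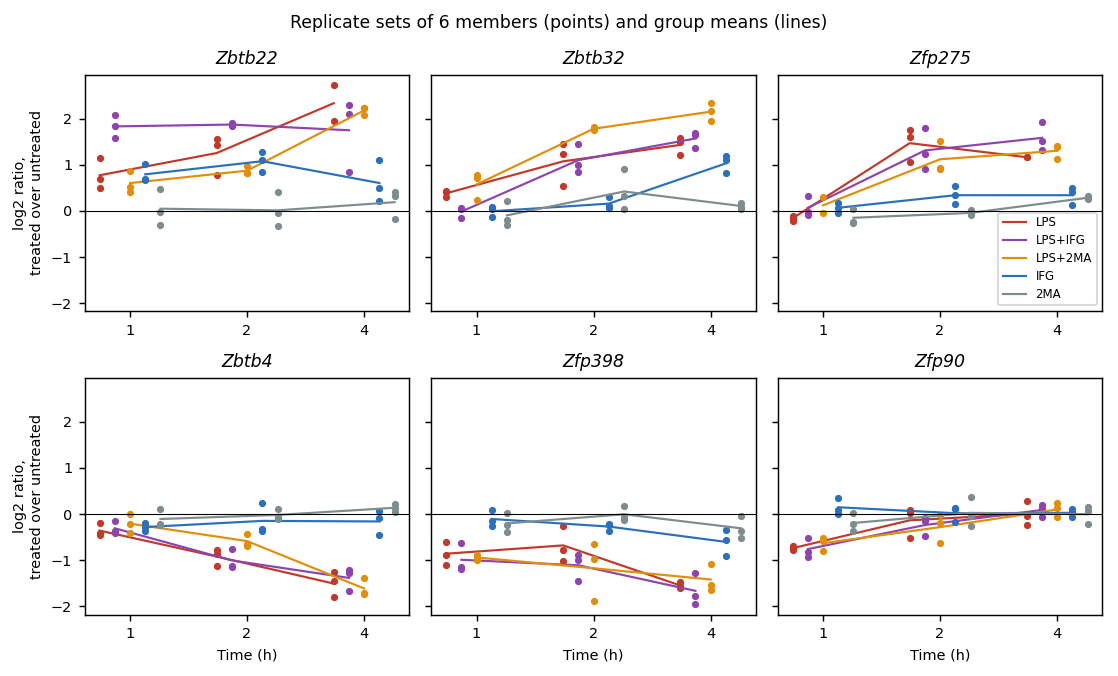
Log2 ratio of treated over untreated RNA in each replicate set (points) and the group mean (lines) of 6 members at 1, 2 and 4 h, which are equally spaced. Zbtb22, Zbtb32 and Zfp275 lie high under LPS and both combinations, Zbtb4 and Zfp398 fall to 4 h, and Zfp90 is low at 1 h and back at 0 by 4 h.

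Promoter sequence was examined for the early fallers, since they moved together. RefSeq windows on GRCm38.p6, from 250 bases before a start site up to it, were found for 82 members (111 windows). These motifs were searched on both strands: GAS (TTCNNNGAA, the site of Stat factors), the ISRE core (GAAA, any 2 bases, GAAA), AP-1 (TGANTCA), CRE (TGACGTCA), and, by consensus, kappa B and the CArG box. Of the 16 early fallers with a window, 5 held the GAS letters (31.2%), which 17.1% of all 82 members and 8.13% of all 27025 genes with a window also held. None of the 16 held any of the other 5 motifs. Each of those was held by few of all genes with a window, from 1.62% (CArG box) to 7.82% (AP-1). The windows with GAS letters are shown because they belong to genes that fell together. The capitals mark the match, and the match shown is the one nearest to the start site where a gene has several.
Zfp398 (chr6:47835524-47835592, + strand): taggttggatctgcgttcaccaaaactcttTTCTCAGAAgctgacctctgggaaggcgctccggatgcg
Zfp54 (chr17:21423074-21423142, + strand): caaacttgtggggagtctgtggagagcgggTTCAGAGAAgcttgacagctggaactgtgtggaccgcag
Zfp639 (chr3:32510342-32510384, + strand): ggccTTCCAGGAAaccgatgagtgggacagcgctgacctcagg
Zfp93 (chr7:24270312-24270380, + strand): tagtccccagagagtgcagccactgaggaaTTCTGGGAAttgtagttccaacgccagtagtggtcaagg
Zfp94 (chr7:24316667-24316723, - strand): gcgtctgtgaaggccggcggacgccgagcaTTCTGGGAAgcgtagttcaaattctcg

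The Zfp93 match runs straight into a second run of letters, GGGAATTGTAGT. Read on the other strand this is the core of the promoter element ACTACA, any 2 bases, TCCC, letters that belong to the site of the zinc finger factor Zfp143. It was searched only after the sequences above were seen. It was present in 11 of 82 members (13.4%), against 1.92% of all genes with a window, and 7 of these 11 also held GAS letters, which share their last bases with the element in Zfp93. Of the 11, 9 lie on chromosome 7, which holds 21 members, and 5 are from 1 run of 7 neighbouring Zfp genes. Such neighbours can be related copies and not independent cases, which was not tested. The other 2 of that run, Zfp235 and Zfp94, had a window without the element. The 5 windows with it are shown to let these neighbours be compared, with the element in capitals. Zfp108 and Zfp112 each hold it at 2 places, of which the one nearer to the start site is shown.
Zfp93 (chr7:24270316-24270387, + strand): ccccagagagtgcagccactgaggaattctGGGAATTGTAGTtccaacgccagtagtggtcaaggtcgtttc
Zfp108 (chr7:24254696-24254767, + strand): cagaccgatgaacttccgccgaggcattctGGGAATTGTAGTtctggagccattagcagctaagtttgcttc
Zfp109 (chr7:24237682-24237753, - strand): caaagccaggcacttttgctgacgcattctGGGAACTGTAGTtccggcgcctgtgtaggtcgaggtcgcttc
Zfp111 (chr7:24208172-24208243, - strand): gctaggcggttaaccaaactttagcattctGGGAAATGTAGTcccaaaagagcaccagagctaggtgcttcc
Zfp112 (chr7:24112235-24112306, + strand): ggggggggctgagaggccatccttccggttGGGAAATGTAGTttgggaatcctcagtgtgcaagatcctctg
The means of these 5 genes at 1 h of LPS were -0.59 (Zfp93, called lower), -0.37 (Zfp108), -0.09 (Zfp109), -0.29 (Zfp111) and -0.08 (Zfp112). The last 4 were not called, and differences between the genes were not tested. Over all members, 2 of 11 with the element were lower there and 14 of 71 with a window and no element (2.35% of all features).

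At 2 h of LPS 16 members were lower (7.79% of all features) and 8 higher (7.59% of all features). At 4 h 24 were lower (15.5%) and 6 higher (12.5%). LPS+IFG gave 23 lower (10.6% of all features) and 8 higher (9.68%) at 2 h, and 33 lower (18.5%) and 10 higher (14.9%) at 4 h. LPS+2MA gave 25 lower (8.81%) and 7 higher (8.34%), then 27 lower (18.1%) and 10 higher (14.7%). At 4 h of LPS 3 members were 2-fold higher (3.64% of all features) and 3 2-fold lower (1.17%). Members 2-fold lower were 6 at 2 h and 5 at 4 h of LPS+IFG, where 0.741% and 2.13% of all features were, and 4 were 2-fold higher at each time (3% and 4.58%). These 2-fold counts move with single sets and settings, for which the shares of all features at 2-fold were not counted. The 3 lower at 4 h of LPS became 5 without set 2 and 5 from Cy5 arrays only. The 6 lower at 2 h of LPS+IFG became 3 without set 1, 8 without set 2, 4 without set 3 and 3 with the spread scaled, and the 4 higher there became 7 from Cy3 arrays only. With all 3 sets required in every group, which leaves out Zbtb22, Zfp275, Zbtb7a and Zfp346, 1 member was 2-fold higher at 4 h of LPS, and 1 and 2 at 2 and 4 h of LPS+IFG. At 2 h of LPS, leaving out set 1 took the 24 calls to 15, where 5.53% of all features were higher and 5.43% lower.

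**Figure D3:**
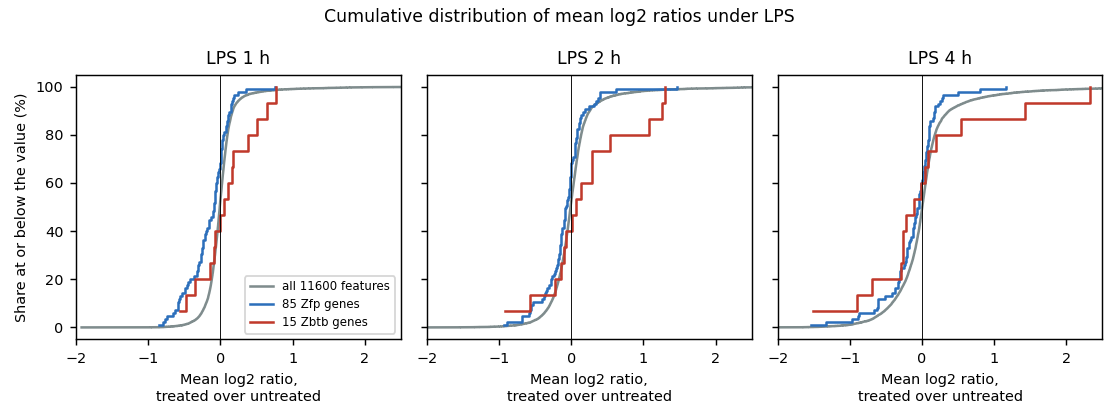
Cumulative share, in percent, of the 85 Zfp genes, the 15 Zbtb genes and all 11600 features at or below each mean log2 ratio of treated over untreated RNA, at 1, 2 and 4 h of LPS. The Zfp curve lies left of all features below 0 at 1 h, and the Zbtb curve reaches further right at 2 h.

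Zbtb22, on chromosome 17 beside the major histocompatibility genes, was higher in 11 of 15 conditions, the most of any member, every time of IFG among them. Under LPS its sets were 1.14, 0.50 and 0.68 at 1 h, 1.42, 1.55 and 0.79 at 2 h, and 2.72 and 1.94 at 4 h, where set 1 was missing. The mean at 4 h was 2.33 ± 0.55 (SD, n = 2), or 5.04-fold (adjusted p = 4.81e-10), the highest mean of any member. LPS+IFG was already at 2.07, 1.58 and 1.84 at 1 h, above every set of LPS alone, and then changed little: 1.87 ± 0.03 at 2 h and 1.75 ± 0.78 at 4 h. IFG alone peaked at 2 h (0.85, 1.28 and 1.10) and was at 0.60 ± 0.46 at 4 h. With 2MA alone its mean was between 0.01 and 0.19. Its neighbours Daxx, a chaperone of histones, and Tapbp, which loads peptide onto class I molecules, rose as well at 4 h of LPS (3.01 ± 0.09 and 1.33 ± 0.12), but Rgl2 (-0.10 ± 0.07) and Pfdn6 (0.08 ± 0.13), the next genes on, were not called there. Kifc1, a kinesin gene on the other side of Daxx, was lower (-0.84 ± 0.41, adjusted p = 0.00747), and also at 2 h of LPS+IFG (adjusted p = 0.00198) and at 4 h of IFG (-1.03 ± 0.19), LPS+IFG (-1.28 ± 0.35) and LPS+2MA (-1.17 ± 0.56).

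Zbtb32, a repressor of cytokine genes in lymphocytes, rose late. Under LPS its sets were 0.30, 0.44 and 0.40 at 1 h, not called (adjusted p = 0.118), 1.46, 1.23 and 0.53 at 2 h, and between 1.22 and 1.57 in the 3 sets at 4 h (mean 1.43 ± 0.19, 2.69-fold, adjusted p = 7.44e-11). LPS+2MA gave 1.81, 1.78 and 1.74 at 2 h and 2.16, 1.95 and 2.34 at 4 h (mean 2.15 ± 0.19, 4.44-fold), all above the sets of LPS alone at those times. IFG alone had no value above 0.31 before 4 h and then 1.18, 1.09 and 0.82 (mean 1.03 ± 0.19, adjusted p = 3.82e-07). 2MA alone had 0.92 in set 1 at 2 h and 0.03 and 0.32 in the others, and was not called.

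Zfp275, an X-linked finger gene, was near 0 at 1 h and high from 2 h on in the conditions with LPS. Its sets at 1 h of LPS were -0.21, -0.15 and -0.12, at 2 h 1.59, 1.07 and 1.75 (mean 1.47 ± 0.36, 2.77-fold, adjusted p = 9.32e-11), and at 4 h 1.17 and 1.16, with set 1 missing. LPS+IFG at 4 h read 1.92, 1.31 and 1.52 (mean 1.58 ± 0.31), but LPS+IFG less LPS was not called for Zfp275 there, with or without the block. IFG alone gave 0.34 ± 0.19 at both 2 and 4 h and was not called (adjusted p = 0.256 and 0.099).

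Zbtb7a, known as LRF and needed in lymphoid and erythroid cells, peaked at 2 h. LPS gave 0.78, 0.60 and 0.13 at 1 h, 1.45, 1.12 and 1.32 at 2 h (mean 1.30 ± 0.17, 2.46-fold, adjusted p = 1.31e-08) and 0.58, 0.67 and 0.37 at 4 h. The 2 h sets lay above all others. LPS+2MA at 2 h read 1.38, 1.34 and 1.38 and all 3 sets of LPS+IFG were at or above 0.80. IFG alone was at 0 until 4 h (0.47 ± 0.01, adjusted p = 0.0241). Zfp281, a regulator of pluripotent cells, was higher with IFG: 0.77, 0.54 and 1.09 at 2 h and 0.99, 0.49 and 0.99 at 4 h. Its mean at 4 h of IFG was 0.82 ± 0.29 (adjusted p = 0.00033 in limma), beside 0.81 ± 0.36 at 4 h of LPS. LPS less IFG was not called for Zfp281 at 4 h. LPS+IFG at 4 h gave 1.55, 0.77 and 1.11 (mean 1.14 ± 0.39, 2.21-fold).

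Zbtb4, a relative of Kaiso that binds methylated DNA, and Zfp524 fell late. Under LPS Zbtb4 read -0.46, -0.42 and -0.20 at 1 h, not called (adjusted p = 0.067), -1.12, -0.86 and -0.77 at 2 h, and -1.45, -1.81 and -1.26 at 4 h (mean -1.51 ± 0.28, 2.84-fold lower, adjusted p = 2.65e-13). Each time lay below the one before in every set. LPS+2MA reached -1.39, -1.71 and -1.74 (mean -1.61 ± 0.20) and LPS+IFG -1.66, -1.20 and -1.28. IFG alone gave -0.16 ± 0.27 at 4 h and 2MA alone 0.14 ± 0.09, neither called. Zfp524 followed the same course under LPS, with -0.33 ± 0.08 at 1 h and -1.33, -1.38 and -1.27 at 4 h (2.51-fold lower, adjusted p = 5.31e-13), but it was also lower with IFG at 4 h (-0.71 ± 0.20) and with 2MA at 4 h (-0.49 ± 0.25, adjusted p = 0.00722).

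Zfp248 and Zfp810 were 2-fold lower in conditions where a second agent was added to LPS. Zfp248 read -0.65, -0.48 and -0.45 at 2 h of LPS, -1.27, -0.73 and -1.17 with LPS+IFG (mean -1.06 ± 0.29) and -1.37, -0.77 and -0.94 with LPS+2MA (mean -1.02 ± 0.31). Zfp810 was at -0.66 ± 0.26 at 4 h of LPS and -1.05 ± 0.36 with LPS+IFG, with sets of -1.25, -0.64 and -1.26. The sets of LPS and of the combination overlap for Zfp810 and do not for Zfp248 at 2 h. As a difference, LPS+IFG less LPS was -0.53 for Zfp248 at 2 h (adjusted p = 0.309, or 0.03 with the set as a block) and -0.39 for Zfp810 at 4 h (adjusted p = 0.516), and LPS+2MA less LPS was -0.50 for Zfp248 at 2 h (adjusted p = 1). Zbtb1, which lymphocytes need to develop, stopped just short of 2-fold, at -0.88, -1.04 and -1.07 at 4 h of LPS+2MA (SD 0.11; adjusted p = 1.97e-08).

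**Figure D4:**
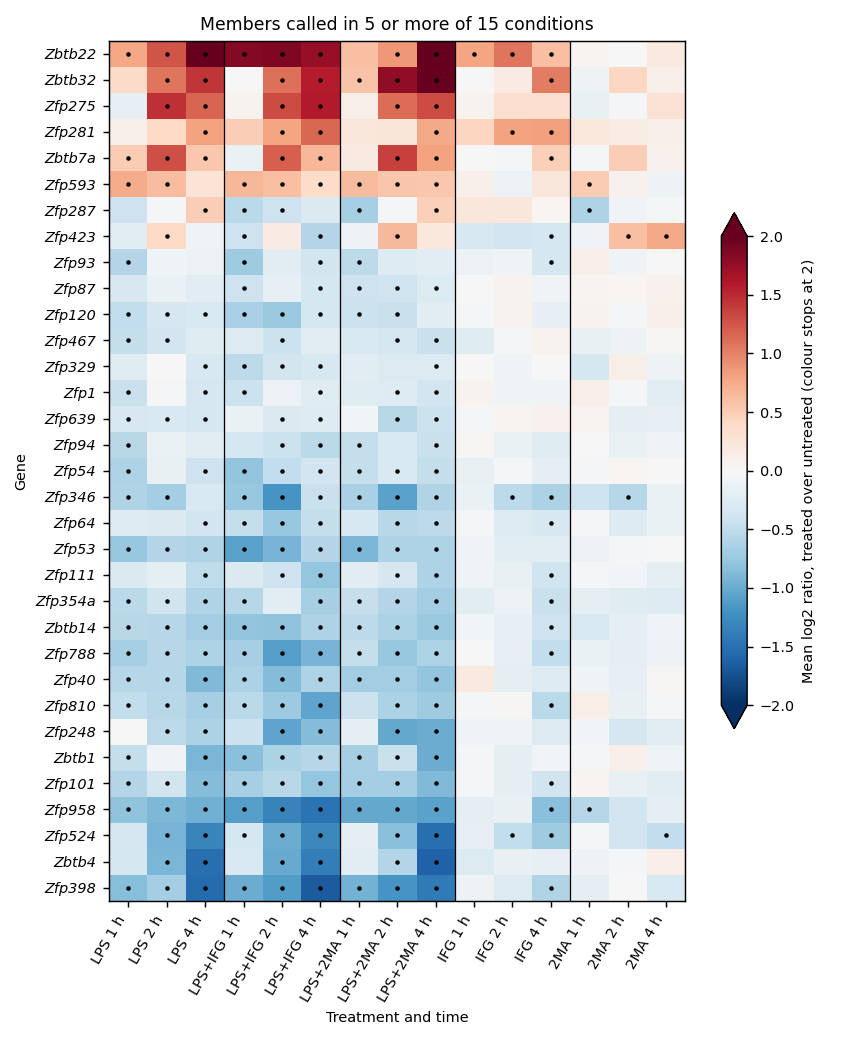
Mean log2 ratio of treated over untreated RNA (colour, which stops at 2 in either direction) of the 33 members called in 5 or more of the 15 conditions. The share of all features called that often was not counted. A dot marks an adjusted p under 0.05. A few rows at the top, led by Zbtb22, are red under LPS and its combinations, and most rows are blue there and pale under IFG and 2MA.

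A smaller early rise was that of Zfp593, a nuclear protein tied to ribosome making. Its sets were 0.97, 0.43 and 0.85 at 1 h of LPS (mean 0.75 ± 0.29, adjusted p = 9.59e-05) and it was back to 0.27 ± 0.26 at 4 h. It also rose at 1 h of 2MA alone (0.77, 0.39 and 0.34, adjusted p = 0.0399), and was called in 9 of 15 conditions, always higher. Zfp287 changed sign with time under LPS+2MA: its sets were -0.68, -0.60 and -0.71 at 1 h (adjusted p = 0.0024) and 0.44, 0.66 and 0.31 at 4 h (adjusted p = 0.0108). LPS alone ran from -0.42 ± 0.26 to 0.49 ± 0.18, and only the second was called. LPS+IFG did not turn: -0.53 ± 0.05 at 1 h and -0.29 ± 0.15 at 4 h.

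IFG alone moved few members before 4 h. At 1 h Zbtb22 alone was higher (1 of 100, 0.966% of all features) and none lower (0.103%). In limma 6 members had an unadjusted p under 0.05, a threshold at which the share of all features was not counted. At 2 h 2 were higher (2.69%) and 2 lower (0.586%). At 4 h 14 were lower (5.68% of all features) and 6 higher (6.11%), the lowest being Zfp958 and the highest Zbtb32. Single sets weigh on these counts and on the shares of all features higher and lower, given in brackets. The 20 calls at 4 h became 11 without set 1 (4.94% and 3.44%) and 10 without set 3 (4.68% and 3.49%). The 4 calls at 2 h became 2 without set 2 (1.97% and 0.172%) or set 3 (2.05% and 0.284%). The single call at 1 h was lost without set 1 (0.819% and 0.0517%), set 2 (0.672% and 0.0603%) or set 3 (0.759% and 0.0603%).

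2MA alone moved 3, 2 and 2 members at 1, 2 and 4 h. These were Zfp593 higher (0.716% of all features) with Zfp287 and Zfp958 lower (0.552%) at 1 h, Zfp423 higher (0.983%) and Zfp346 lower (0.25%) at 2 h, and Zfp423 higher (1.31%) and Zfp524 lower (0.534%) at 4 h. Zfp423, a factor of fat cell commitment, gave 1.15, 0.18 and 0.45 at 2 h and 1.12, 0.49 and 0.67 at 4 h (mean 0.76 ± 0.32, adjusted p = 0.000125). Set 1 was the highest at both times. With LPS+2MA it was at 0.65 ± 0.10 at 2 h, and with IFG at 4 h it was lower (-0.35 ± 0.08, adjusted p = 0.0484). With a set left out, the shares of all features higher and lower stand in brackets. No 2MA call remained without set 1 at 1 h (0.207% and 0.0172%) or 2 h (0.155% and 0%). At 1 h 1 of 3 remained without set 3 (0.586% and 0.129%), and at 2 h 4 were made without set 2 (0.776% and 0.259%). At 4 h 1 of 2 remained without set 1 (0.259% and 0.138%).

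Adding IFG to LPS was tested directly, as LPS+IFG less LPS. At 1 h Zbtb22 was higher by 1.06 ± 0.27 (SE; adjusted p = 0.0486; 0.922% of all features were higher) and no member lower (0.0431%). At 2 h Zfp654 was higher by 0.73 (1 member, 1.91% of all features) and Zfp788 lower by -0.52 (1 member, 0.621%). At 4 h Zfp287 was lower by -0.78 (1 member, 1.41% of all features) and no member higher (2.46%). Zfp654 read 0.93, 0.27 and 0.81 at 2 h of LPS+IFG and 0.20, -0.20 and -0.21 at 2 h of LPS. Same-numbered sets of LPS and the combinations deviated together, and fitting the set number as a block gave calls for 2, 11 and 6 members at 1, 2 and 4 h. Those at 1 h were 2 higher (Zbtb22 and Zfp654; 1.34% of all features) and 0 lower (0.155%). Those at 2 h were 3 higher (Zfp654, Zfp316 and Zfp821; 3.73% of all features) and 8 lower (2.21%), among them Zbtb1 (-0.55, adjusted p = 0.0115), Zfp64 (-0.47) and Zfp346 (-0.50). Those at 4 h were Zfp318, Zfp474 and Zfp821, higher (4.41% of all features), and Zfp287, Zfp423 and Zfp958, lower (3.85%). Without the block the call of Zbtb22 at 1 h was lost when set 2 or 3 of LPS or any set of LPS+IFG was left out (values of 0.92 to 1.18). The 2 calls at 2 h became 1 without any one set of LPS and 0 without set 1 or set 3 of LPS+IFG. The call at 4 h was lost without set 1 or 2 of LPS or set 2 of LPS+IFG, and without set 3 of LPS 2 were made. The shares of all features with a set left out were not counted for these differences.

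Adding 2MA to LPS called no member at 1, 2 or 4 h in limma, where 0.0776%, 0.0603% and 0.259% of all features were higher and 0%, 0% and 0.0603% lower. At an unadjusted p under 0.05 there were 2, 9 and 3 members, but the share of all features at that threshold was not counted. With the set as a block 0, 1 and 1 were called, all higher, where 0.216%, 0.388% and 1.11% of all features were higher and 0%, 0.0776% and 0.56% lower. The one gene was Zbtb32, higher by 0.71 at 2 h (adjusted p = 0.0216 in the block, 0.259 without) and by 0.72 at 4 h (adjusted p = 0.00788 and 0.122). Since lipid binding protein is listed for LPS alone, its presence there and the second agent cannot be told apart in any of these 6 comparisons.

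Between 1 and 4 h of LPS 7 members rose (6.96% of all features) and 5 fell (6.8%). LPS+IFG gave 12 and 7 (8.62% and 9.37% of all features), LPS+2MA 8 and 5 (8.56% and 9.3%), IFG 1 and 2 (2.73% and 1.72%) and 2MA 1 and 0 (0.138% and 0.147%). These shares are near or under those of all features, except for LPS+IFG higher and the single call of 2MA. Zbtb32, Zfp275 and Zfp90 rose and Zbtb4 and Zfp524 fell with time in all 3 conditions with LPS. Without set 1 of the 4 h group the 12 calls of LPS became 7, and without set 1 of the 1 h group the 19 of LPS+IFG became 12. The 3 calls of IFG became 1 without set 1 or 2 at 1 h or set 1 or 3 at 4 h. The 1 call of 2MA, Zfp423, was lost without set 1 or 2 at 1 h or set 1 at 4 h. With a set left out, the shares of all features were not counted for the differences in time.

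LPS and IFG were also set against each other. LPS less IFG was lower in 8 members at 1 h (0.914% of all features) and higher in 1, Zbtb43 (1.47%). At 2 h 5 were higher (3.47%) and 3 lower (3.22%), and at 4 h 2 were higher (5.1%) and 9 lower (4.42%). Zbtb22 and Zbtb4 differed most at 4 h, by 1.73 and -1.35, and Zbtb7a and Zfp275 at 2 h, by 1.32 and 1.13. Same-numbered sets of LPS and IFG deviated together at 1 h (correlations of 0.258 to 0.601) and at 4 h (0.369 to 0.646), but not in every pair at 2 h (-0.0311 to 0.515). With the set as a block 18 members were lower (2.08% of all features) and 2 higher (2.48%) at 1 h, 13 lower (7.04%) and 8 higher (6.19%) at 2 h, and 12 lower (8.44%) and 5 higher (8.16%) at 4 h. Among those gained at 1 h were Zfp398 (-0.75, adjusted p = 0.0144 in the block and 0.0764 without), Zfp958 (-0.60, 0.00854 and 0.171) and the higher Zfp593 (0.64, 0.00294 and 0.0514). Without the block the 9 calls at 1 h became 5 without set 1 of LPS, 3 without set 3 of LPS and 5 without set 1 or 3 of IFG. The 8 at 2 h became 5 without set 2 of IFG, and the 11 at 4 h became 7 without set 1 of either. Here too, the shares of all features with a set left out were not counted.

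A list of 27 well-studied Zbtb and Zfp genes was also followed, of which 13 were measured. Of these, 10 were called in 1 or more conditions (48.3% of all features), and Zbtb32, Zbtb7a and Zfp281, described above, were the 3 that reached 2-fold (9.78%). Zbtb16 (PLZF) was called nowhere and lay between -0.21 and 0.21 in its means. Zfp57, a keeper of imprints, was called nowhere. Zfp207, a spindle protein, was called nowhere either. Zbtb20, known to act on inflammatory signalling in macrophages, was called only at 4 h of LPS+IFG (-0.68, -0.87 and -0.36; mean -0.64 ± 0.25). Zbtb33 (Kaiso) was lower at 4 h of LPS+IFG (-0.31 ± 0.21) and of LPS+2MA (-0.34 ± 0.15, adjusted p = 0.0167), the second call lost without set 1 or set 2. Zfp148 was lower in 4 conditions, to -0.53 ± 0.08 at 2 h of LPS+IFG. Zfp467 was lower in 5 conditions, and its call at 1 h of LPS (-0.94, -0.30 and -0.17) was lost without set 1. Zfp318, which B cells need for IgD, was at -0.30 ± 0.09 at 4 h of LPS, a call lost without any one set, and at 0.0424 from Cy3 arrays only. Zbtb17 (Miz-1) was called at 2 h of LPS+IFG only, with 0.83, -0.10 and 1.05, and lost without set 1 or set 3. From Cy5 arrays only its value turned to -0.19.

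Of the 7 members with several probes, Zfp60 and Zbtb46 had probes that disagreed. The Zfp60 probes read -0.62 and -0.01 at 1 h of LPS and -0.44 and 0.57 at 4 h, opposite in sign and both called at 4 h (adjusted p = 0.0174 and 0.00645), so its mean of 0.06 describes neither. For Zbtb46, a marker of dendritic cells, one probe was at 1.13 at 2 h of LPS+2MA (adjusted p = 4.41e-07 in limma) and the other at -0.06. That other probe was called lower at 4 h of LPS (-0.18), LPS+IFG (-0.31) and LPS+2MA (-0.29). The first was at -0.05, 0.16 and 0.27 there and not called. By the mean of its probes, Zbtb46 is counted above as higher and never lower, which does not hold for each probe.

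Position was compared too. There were 4 runs of 3 or more members, holding 17 members, with neighbours at most 10 places apart in the order of protein-coding genes. The shares of all features lower and higher were 2.35% and 3.04% at 1 h of LPS and 15.5% and 12.5% at 4 h. With LPS+IFG these shares were 2.96% and 4.3% at 1 h and 18.5% and 14.9% at 4 h. At 1 h of LPS 5 of the 17 members were lower and 0 higher, beside 14 lower and 4 higher of the 83 other members. At 4 h of LPS the counts were 5 lower and 0 higher in runs, beside 19 and 6 outside. At 1 h of LPS+IFG they were 5 and 0 beside 19 and 3, and at 4 h 8 and 0 beside 25 and 10. These differences were not tested, and members of a run can be close copies.

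The partners of these proteins were measured too. The shares of all features to read them against are 2.35% lower and 3.04% higher at 1 h of LPS, 15.5% and 12.5% at 4 h, and 18.5% and 14.9% at 4 h of LPS+IFG. Of 11 genes of the KRAB corepressor complex, 1 was lower and 1 higher at 1 h of LPS, 3 lower and 1 higher at 4 h, and 6 lower and none higher at 4 h of LPS+IFG. Trim28, the protein that KRAB domains bind, was at -0.62 ± 0.05 at 4 h of LPS and -0.88 ± 0.11 with LPS+IFG, and Setdb1, the methyltransferase it recruits, at -0.32 ± 0.24 and -0.44 ± 0.06. Of 8 BTB partners, 1 was higher and none lower at 1 h of LPS, and 1 lower and none higher at 4 h, near or under the shares of all features at 4 h. That one was Sin3a, at -0.98 ± 0.17, and at -1.36 ± 0.15 with LPS+IFG (adjusted p = 2.18e-12). Of 4 measured BTB zinc finger genes without a Zbtb symbol, 2 were higher at 1 h of LPS and none lower. Bcl6b, a close relative of Bcl6, was at 2.14 ± 0.66, 3.46 ± 0.17 and 2.12 ± 0.61 at 1, 2 and 4 h of LPS, the 2 h mean above that of any member, and it rose with 2MA at 2 h as well (2.15 ± 1.18). Bcl6 itself was higher at 1 h of LPS (0.71 ± 0.06) and lower at 1 h of IFG (-0.88 ± 0.08). Of 29 other C2H2 genes, 2 were lower and none higher at 1 h of LPS, where 2.35% and 3.04% of all features were. At 4 h 2 were lower and 4 higher, near or under the shares of all features at 4 h. Of the 29, Hivep1 rose with IFG (1.32 ± 0.48 at 4 h), Hivep2 with LPS+2MA (1.08 ± 0.43 at 4 h) and Ikzf1 with LPS+IFG (1.07 ± 0.10 at 4 h).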

How the data were processed

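RNA of RAW 264.7 cells was measured on 90 two-channel arrays, 15 conditions with 3 sets of 2 dye orientations. The deposited values are log2 ratios of one channel over the other in the series' value table; background correction, normalization and scale are not given in the sources used here. An exact 0 was taken as missing (7.84% to 17% of values per array), and 14 values lay at the log2 of a 100-fold ratio. The sign was turned on arrays with treated RNA in Cy3, both orientations of a set were averaged, and probes of a gene were averaged. Of 16281 probes, 13711 had 2 or more sets in every group. Of 13790 probes with an annotation, 13738 named 1 gene symbol and 52 several.

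All 11600 features entered 1 limma fit (limma 3.58.1, R 4.3.3; Python 3.11.15) of 15 group means, with empirical Bayes and Benjamini-Hochberg adjustment over all features in each comparison. A call is an adjusted p under 0.05; SDs are over sets. Precision is set by the number of arrays, and the median residual SD of a set was 0.199. Same-numbered sets of LPS and its combinations were paired, since their deviations correlated above 0.1 in 18 of 18 pairs (lowest 0.119, median 0.466), so blocked values stand beside those comparisons. The same held for LPS and IFG at 1 and 4 h (3 of 3 pairs each), not at 2 h (2 of 3). Named genes were members called in a condition (up to 30 by size), the highest and lowest per condition, members called in the differences, and preset lists. The members and lists were chosen with earlier results of these data known. Alternatives were single dye orientations, zeros kept, scaled spread, complete sets, single probes, the block, a dye term, and leaving out each set. The fit was tested on simulated data. Promoter windows come from RefSeq.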

Additional observations from a re-analysis of the deposited data

Results flagged for a closer look

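These members differed between conditions or times by more than 2-fold in a direct test of the difference (limma, adjusted over all features; log2 differences with SE, from 3 sets a group, or 2 where a set was missing). No group had enough sets to test for a deviating one. LPS+IFG less LPS at 1 h was 1.059 for Zbtb22 (SE 0.274, adjusted p = 0.0486).

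Between 1 and 4 h, Zbtb32 rose by 1.584 with LPS+IFG, 1.577 with LPS+2MA, 1.049 with LPS and 1.038 with IFG. Zbtb22 rose by 1.573 with LPS+2MA and 1.561 with LPS. Zfp275 rose by 1.515 with LPS+IFG, 1.323 with LPS and 1.182 with LPS+2MA. Zfp287 rose by 1.136 with LPS+2MA. The differences of Zbtb4 were -1.405 with LPS+2MA, -1.149 with LPS and -1.075 with LPS+IFG, and that of Zfp524 was -1.334 with LPS+2MA. The adjusted p of these ran from 6.28e-09 to 0.000398.

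LPS less IFG was 1.729 for Zbtb22 and -1.346 for Zbtb4 at 4 h, and 1.322 for Zbtb7a and 1.128 for Zfp275 at 2 h, with adjusted p from 1.1e-07 to 0.000102.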

How the results depend on the processing

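Of 501 values of named members and differences under other settings, 469 kept their direction and their side of the threshold, 25 lost it, 2 gained it and 5 changed sign. The sign changes were Zbtb16 at 2 h of IFG (0.11 from Cy3 arrays only), Zbtb17 at 2 h of LPS+IFG (-0.19 from Cy5 arrays only), Zfp318 at 4 h of LPS (0.0424 from Cy3 arrays only) and Zfp57 at 4 h of LPS (0.31 from Cy5 arrays only, and from -0.296 to 0.0225 when 1 set was left out). The cause was not tested. Of 232 counts of called members under other settings, leaving out sets aside, 178 were within 1.5 times.

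For the conditions, the shares of all features higher and lower under each setting stand in brackets. For differences these shares were counted only in the main fit and with the replicate block, and are given above. From Cy5 arrays only, the counts were 2 (2.05% and 1.27%) and 9 (7.2% and 4.31%) for IFG at 1 and 2 h. For 2MA they were 14 (5.78% and 5.92%), 6 (4.46% and 3.15%) and 4 (3.86% and 3.46%) at 1, 2 and 4 h. Differences gave 1 and 0 for LPS+IFG less LPS at 2 and 4 h. They gave 0 for 2MA and 6 for LPS+2MA at 4 h less 1 h, and 4 and 5 for LPS less IFG at 1 and 4 h. From Cy3 arrays only, the counts were 5 (2.52% and 2.12%), 12 (6.81% and 3.79%) and 5 (4.14% and 3.56%) for 2MA at 1, 2 and 4 h. They were 0 and 1 for LPS+IFG less LPS at 1 and 2 h, 1 for IFG at 4 h less 1 h, and 2, 5 and 7 for LPS less IFG. With zeros kept, the counts at 1 h were 0 for IFG (0.884% and 0.0906%), 1 for 2MA (0.559% and 0.272%) and 0 for LPS+IFG less LPS. With the spread scaled, the count was 1 for 2MA at 1 h (0.586% and 0.431%). Differences gave 0, 0 and 0 for LPS+IFG less LPS, 1 for IFG at 4 h less 1 h, and 17 and 4 for LPS less IFG at 1 and 4 h. With all 3 sets required, the counts were 0 (0.999% and 0.126%) and 2 (2.97% and 0.586%) for IFG at 1 and 2 h. For 2MA at 2 and 4 h they were 1 (1.11% and 0.253%) and 1 (1.57% and 0.643%). Differences gave 0 for LPS+IFG less LPS at 1 h and 0 for 2MA at 4 h less 1 h. With a dye term, the counts were 6 (1.47% and 2.47%) and 5 (1.79% and 0.466%) for 2MA at 1 and 2 h. Differences gave 2, 4 and 2 for LPS+IFG less LPS, and 1 and 1 for LPS+2MA less LPS at 2 and 4 h. They gave 3 for 2MA at 4 h less 1 h and 17 for LPS less IFG at 1 h. With the replicate block, the count was 1 for 2MA at 1 h (0.552% and 0.233%). Differences gave 2, 11 and 6 for LPS+IFG less LPS, 1 and 1 for LPS+2MA less LPS at 2 and 4 h, and 20, 21 and 17 for LPS less IFG. Sets of 1 and 4 h correlated above 0.1 in 7 of 15 pairs, and those of LPS and IFG at 2 h in 2 of 3, so these were not taken as paired.

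Leaving out 1 set at a time, the counts at 1, 2 and 4 h ranged from 14 to 19, 15 to 19 and 22 to 25 for LPS, 0 to 0, 2 to 3 and 10 to 14 for IFG, 0 to 3, 0 to 4 and 1 to 3 for 2MA, 20 to 27, 27 to 31 and 33 to 37 for LPS+IFG, and 13 to 22, 25 to 28 and 28 to 33 for LPS+2MA. For LPS+IFG less LPS they ranged from 0 to 1, 0 to 3 and 0 to 2, and for LPS less IFG from 3 to 6, 5 to 9 and 7 to 11. For 4 h less 1 h they ranged from 7 to 12 (LPS), 1 to 3 (IFG), 0 to 1 (2MA), 12 to 17 (LPS+IFG) and 9 to 12 (LPS+2MA). The shares of all features moved as well when a set was left out. At 1 h of LPS 3.04% were higher and 2.35% lower with all sets, and 1.95% and 0.845% without set 1. For differences these shares were not counted.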
